A study of Mus musculus with 16 samples.

Results

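The genes described here are 9 transcripts that are commonly used to recognise the suprachiasmatic nucleus, the paired cell group at the base of the hypothalamus that holds the master circadian clock. They are the peptide ligands Vip, Grp, Nms and Prok2, the receptors Prokr2 and Vipr2, the G protein regulators Rasd1 and Rgs16, and the transcription factor gene Lhx1. The members were chosen by name: 13 of the 55681 probes on the arrays carried 1 of these 9 names, and 11 of the 13 were brighter than background, by the scanner's own mark, on 8 or more of the 16 arrays. All 9 genes were therefore among the 24360 genes tested, with 1 probe per gene (that with the highest mean). Values are log2 of the scanner's processed signal minus the 75th percentile of the same array, so 0 marks the brightness that 25% of probes exceed, and a difference of 1 is a doubling.

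Hypothalamus RNA was measured on 1-colour Agilent arrays in 16 mice, 8 control and 8 called KO chimera. The KO chimeras were C57BL/6J mice, lethally irradiated with 950 Rad, that received whole bone marrow of Adrb1tm1BkkAdrb2tm1Bkk/J donors, which lack the beta-1 and beta-2 adrenergic receptors. Marrow was injected once behind the eye at a ratio of 1:4 (knockout to C57BL/6J, with the labels not saying what the ratio counts), and tissue was taken 2 to 3 months later. The labels attach the same irradiation and marrow text to the control mice, and give a donor strain for the KO chimeras alone, so whether the controls were irradiated or given other marrow cannot be read from them. The deletion is thus in cells descended from the marrow, while the recipients themselves, and so their own neurons, are C57BL/6J. Age and sex of the mice, and the time of day at which tissue was taken, are not given in the sources used here, and several of these genes follow a daily rhythm. The tissue was labelled hypothalamus, and in such a piece fewer cells of a type and less RNA per cell cannot be told apart. Of the arrays, 5 of 6 slides held both groups and each of 2 scan days held 4 mice of each group. Between 27276 and 43248 of 59305 spots per array were well above background, and the number of arrays sets the precision of every value.

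The suprachiasmatic nucleus is built from a core, whose neurons receive input from the retina and make vasoactive intestinal peptide (Vip) and gastrin-releasing peptide (Grp), and a shell rich in vasopressin neurons. Vip acts through the receptor VPAC2, encoded by Vipr2, to keep the neurons in step with each other. Neuromedin S (Nms) marks a large set of clock neurons, and prokineticin 2 (Prok2) is an output signal read by the receptor Prokr2 in and around the nucleus. Rgs16 shortens G protein signalling in the shell, Rasd1 is a Ras-like protein (Dexras1) that tunes responses to light and is induced by glucocorticoids, and Lhx1 drives the late steps of the nucleus's differentiation. None of these genes is private to the nucleus: Vip and Grp are made in cortex, and Rgs16 and Vipr2 are also strong in thalamus.

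The bases just before the transcription start are shown for the genes that varied together across mice, because clock proteins and cyclic AMP signalling act on such sequences. They come from RefSeq on GRCm38.p6, each 250 bases long and in the direction of transcription, ending at the base before the start. The windows are chr10:5638968-5639217 (+ strand) for Vip, chr1:38938899-38939148 (+) for Nms, chr6:99726393-99726642 (−) for Prok2, chr2:132385448-132385697 (−) for Prokr2, chr12:116077476-116077725 (+) for Vipr2 and chr1:153740103-153740352 (+) for Rgs16. Windows were taken for 7 of the 9 members, and none was taken for Grp or Rasd1. Their upstream bases were thus not searched, and this does not show that RefSeq lacks an entry for either gene. Capitals mark a match to the E-box CACGTG, to the full cyclic AMP response element TGACGTCA or to its core TGACG, each searched on both strands.
Vip: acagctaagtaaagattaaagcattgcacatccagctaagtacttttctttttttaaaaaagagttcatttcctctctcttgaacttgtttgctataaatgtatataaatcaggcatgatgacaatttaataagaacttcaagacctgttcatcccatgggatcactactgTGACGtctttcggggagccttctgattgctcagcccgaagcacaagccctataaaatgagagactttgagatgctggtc
Nms: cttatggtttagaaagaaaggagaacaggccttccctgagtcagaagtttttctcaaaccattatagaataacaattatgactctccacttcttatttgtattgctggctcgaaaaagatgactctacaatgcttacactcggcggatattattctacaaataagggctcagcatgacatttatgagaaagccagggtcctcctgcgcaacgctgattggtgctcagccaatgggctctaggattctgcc
Prok2: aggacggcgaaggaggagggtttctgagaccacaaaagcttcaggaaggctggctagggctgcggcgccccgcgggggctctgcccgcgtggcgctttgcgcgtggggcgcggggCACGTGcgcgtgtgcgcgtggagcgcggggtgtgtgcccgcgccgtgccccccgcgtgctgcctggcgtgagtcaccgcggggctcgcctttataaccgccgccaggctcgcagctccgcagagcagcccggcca
Prokr2: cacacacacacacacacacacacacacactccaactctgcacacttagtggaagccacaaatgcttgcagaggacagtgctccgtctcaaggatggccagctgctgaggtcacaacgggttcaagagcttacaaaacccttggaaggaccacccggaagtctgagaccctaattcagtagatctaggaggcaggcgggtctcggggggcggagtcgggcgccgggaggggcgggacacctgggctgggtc
Vipr2: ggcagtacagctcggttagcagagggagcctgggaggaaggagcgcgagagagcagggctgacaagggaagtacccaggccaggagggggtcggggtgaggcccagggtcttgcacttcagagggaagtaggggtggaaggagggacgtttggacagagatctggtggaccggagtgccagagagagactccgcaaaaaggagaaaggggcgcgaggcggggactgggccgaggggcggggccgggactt
Rgs16: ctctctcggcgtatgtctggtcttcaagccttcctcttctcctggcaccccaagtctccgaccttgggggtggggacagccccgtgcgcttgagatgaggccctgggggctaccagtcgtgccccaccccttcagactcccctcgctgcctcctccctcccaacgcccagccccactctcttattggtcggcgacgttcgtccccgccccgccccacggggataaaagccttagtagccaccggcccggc
In Prok2 the E-box, the sequence bound by the clock proteins CLOCK and BMAL1, began 135 bases before the start. In Vip a core TGACG began 79 bases before the start, and in Lhx1 (chr11:84525535-84525784, − strand) another began 50 bases before it. The windows of Nms, Prokr2, Vipr2 and Rgs16 held none of the 3 motifs. Among all 32851 windows of the same length 6.02% held the E-box, 1.55% the full element and 17.8% the core, which also lies inside every full element. These matches are descriptions of letters and were not tested against the expression values.

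Between the groups, none of the 9 genes passed the threshold of an adjusted p under 0.05 in limma (Benjamini-Hochberg over all 24360 genes), against 3.83% of all genes (933): 1.03% higher and 2.80% lower in KO chimeras. At an unadjusted p under 0.05 there was 1 of 9, Rasd1, against 20.7% of all genes, and the exact permutation test over the 12870 ways to assign the mice gave p under 0.05 for the same 1 gene. The 4 peptides and Prokr2 had a higher mean in KO chimeras, Vipr2, Rasd1 and Rgs16 a lower one, and Lhx1 differed by 0.06. The groups overlapped in every member, whereas they did not overlap in 0.956% of all genes.

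**Figure D1:**
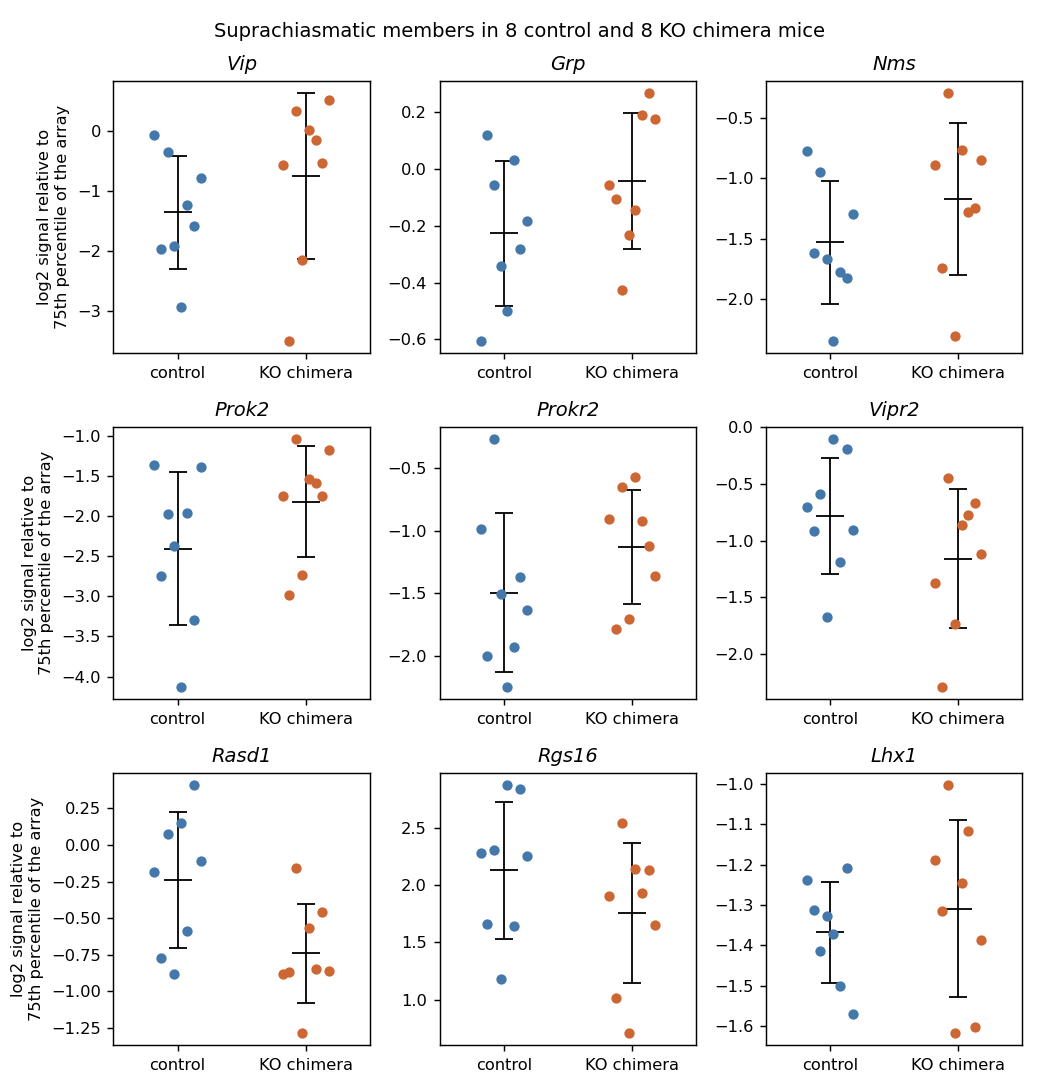
Log2 signal relative to the 75th percentile of the array (vertical axis) of each member in 8 control (blue) and 8 KO chimera mice (orange); points are mice, the long dash and bars are the mean and SD. Points of the groups overlap in all 9 panels, and the axes differ between genes, with Vip spanning 4.02 and Lhx1 0.61.

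Vip, the peptide that couples the neurons of the nucleus, was the most variable member. Its probe (chromosome 10, 4699238 to 4699297, mm9) ran in control mice from −2.94 to −0.07 with a median of −1.41, and in KO chimeras from −3.50 to 0.52 with a median of −0.34. The lowest mice were KO chimera replicate 2 (−3.50), control replicate 5 (−2.94) and KO chimera replicate 4 (−2.15), and the highest was KO chimera replicate 8, a 16.2-fold range over the 16 mice. The group means were −1.36 ± 0.94 and −0.76 ± 1.38 (SD, n = 8 each), a log2 difference of 0.60 ± 0.54 (SE; limma adjusted p = 0.560) with a 95% interval of −0.55 to 1.75. The spread of Vip within groups (pooled SD 1.18) was larger than that of 99.85% of the genes tested, whose median was 0.20.

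Prok2, the secreted output signal, varied nearly as much. In control mice it ran from −4.13 to −1.36 (median −2.18) and in KO chimeras from −2.99 to −1.04 (median −1.67), an 8.5-fold range. Control replicates 5 (−4.13) and 7 (−3.30) were the lowest of all 16. The log2 difference was 0.58 ± 0.38 (SE; limma adjusted p = 0.406; 95% interval −0.23 to 1.396), smaller than the control SD of 0.95. Its probe lies on chromosome 6 at 99661399 to 99661458 (mm9).

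Nms, the peptide of a broad set of clock neurons, lay between −2.35 and −0.77 in control mice (median −1.64) and between −2.31 and −0.30 in KO chimeras (median −1.07), a 4.13-fold range. Control replicate 5 and KO chimera replicate 4 were lowest and KO chimera replicate 3 highest. The difference was 0.36 ± 0.26 in log2 units, with SE (limma adjusted p = 0.460; interval −0.20 to 0.92; probe on chromosome 1, 39007038 to 39007097, mm9). Grp, the other peptide of the core, was steadier: −0.61 to 0.12 in control mice (median −0.23) and −0.43 to 0.26 in KO chimeras (median −0.08). Its lowest mouse was control replicate 1, which ranked 4th of 16 for Vip. Grp differed by 0.18 ± 0.12 (SE; limma adjusted p = 0.394; interval −0.07 to 0.43), and 60.8% of genes had a smaller spread.

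The receptors overlapped between the groups as well. Prokr2, the receptor of Prok2 (chromosome 2, 132196949 to 132197008, mm9), ran from −2.24 to −0.27 in control mice (median −1.57) and from −1.79 to −0.58 in KO chimeras (median −1.02), a log2 difference of 0.36 ± 0.25 (SE; limma adjusted p = 0.439; interval −0.18 to 0.90). Control replicate 5 was again lowest. Vipr2, the receptor of Vip (chromosome 12, 117384455 to 117384514, mm9), ran from −1.67 to −0.11 in control mice (median −0.81) and from −2.29 to −0.44 in KO chimeras (median −0.99). Here control replicate 5 (−0.11) was the highest of all mice and control replicate 7 (−0.19) next, while KO chimera replicate 2 (−2.29) was lowest. Vipr2 differed by −0.37 ± 0.26 (SE; limma adjusted p = 0.438; interval −0.93 to 0.18).

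A second Prokr2 probe was well above background on 0 arrays, as was another Vipr2 probe, so neither gives a level. The remaining Vipr2 probe was above background on 5 arrays of each group and differed by −0.31 (limma adjusted p = 0.719 over all probes). It rose and fell with the first across mice (r = 0.71 with group means removed, n = 16; permutation adjusted p = 0.00806 over the pairs of probes of Vipr2 and Lhx1; rho = 0.77; r = 0.74 without the 2 mice farthest from the median).

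Rasd1, which encodes Dexras1, was the member closest to a difference between groups. Control replicates 1 to 8 measured −0.18, −0.77, 0.07, −0.88, 0.15, −0.59, 0.41 and −0.11, and KO chimera replicates 1 to 8 measured −0.88, −0.87, −0.16, −1.28, −0.57, −0.85, −0.45 and −0.86. Of the controls, 5 lay above −0.20, which in KO chimeras was reached by replicate 3 alone, while control replicates 2, 4 and 6 lay among the KO chimeras. The mean went from −0.24 ± 0.46 to −0.74 ± 0.34 (SD, n = 8 each), a log2 difference of −0.50 ± 0.19 (SE; limma adjusted p = 0.143, unadjusted p = 0.0174; interval −0.90 to −0.10; exact permutation p = 0.0292, two-sided). This is 0.71 times the control level, and it did not pass over all genes; 12.2% of genes had an unadjusted p under 0.05 and a lower mean. It was lower in KO chimeras in all 5 slides that held both groups, by −0.32, −0.53, −0.78, −0.60 and −0.04 in slides 1, 3, 4, 5 and 6, and by −0.36 and −0.64 on the 2 scan days. Slides 4 and 5 held 1 mouse of each group, slide 1 held 1 control and slide 3 held 1 KO chimera. Slide 6, with −0.04, was the only slide with 2 mice of each group. With each array scaled to its median, Rasd1 passed at −0.63 (limma adjusted p = 0.0372), a scaling that moved the median of all genes by −0.126. Its probe lies on chromosome 11 at 59777222 to 59777281 (mm9).

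Rgs16, a brake on G protein signalling, ran from 1.18 to 2.87 in control mice (median 2.27) and from 0.72 to 2.54 in KO chimeras (median 1.92). The highest mice were control replicates 5 and 7 and the lowest KO chimera replicate 4. The log2 difference was −0.37 ± 0.28 (SE; limma adjusted p = 0.467; interval −0.96 to 0.21; probe on chromosome 1, 155592244 to 155592303, mm9). Lhx1, the transcription factor, was the steadiest member, between −1.57 and −1.21 in control mice (median −1.35) and between −1.62 and −1.003 in KO chimeras (median −1.28). It differed by 0.06 ± 0.09 (SE; limma adjusted p = 0.748; interval −0.13 to 0.25), and with each array scaled to its median by −0.07. Its second probe gave −0.02 (limma adjusted p = 0.938) and did not follow the first across mice past the threshold (r = 0.19, n = 16; permutation adjusted p = 0.607; rho = 0.21; r = −0.03 without the 2 farthest). The rank order of the mice for Lhx1 thus depended on the probe. Its first probe lies on chromosome 11 at 84331888 to 84331947 (mm9).

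Within the scan days, Vip was higher in KO chimeras by 0.88 and 0.32, Prok2 by 0.74 and 0.42, Nms by 0.55 and 0.17 and Prokr2 by 0.55 and 0.17, while Vipr2 differed by −0.46 and −0.28. Leaving out each mouse in turn, the Vip difference ranged from 0.37 to 0.99, and the adjusted p of limma stayed at 0.0838 or more for Rasd1 and at 0.168 or more for the other 8. The intervals show the limit of this design for such variable genes: for Vip, a rise of 1.75 or a fall of 0.55 on the log2 scale lies within the 95% interval.

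Other genes of the nucleus gave a similar picture. Of 18 further suprachiasmatic markers all were measured and 0 passed in limma, with a median log2 difference of −0.02 beside −0.00035 for all genes. At an unadjusted p of limma under 0.05 there were 4 of 18, against 20.7% of all genes. With each array scaled to its median, 2 of the 18 were called lower and 15 were negative (median −0.15). Six6 and Six3, homeobox genes of the developing and adult nucleus, measured 0.41 and 0.35 (limma adjusted p = 0.236 and 0.200), and Avp, the vasopressin gene of the shell, −0.13 (0.831). Rorb, a nuclear receptor of the clock, measured −0.01 (0.979), and the synaptotagmin gene Syt10 −0.13 (0.898). The smallest p belonged to Cck, a peptide of the nucleus that is abundant in cortex and thalamus too, at −1.17 ± 0.38 (SE; limma adjusted p = 0.0938), followed by Zfhx3, a transcription factor of the nucleus, at −0.27 (0.128). All 5 defining markers named for the label (Six6, Six3, Avp, Rorb, Syt10) were above background on all 16 arrays, as were the tested probes of all 9 members.

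**Figure D2:**
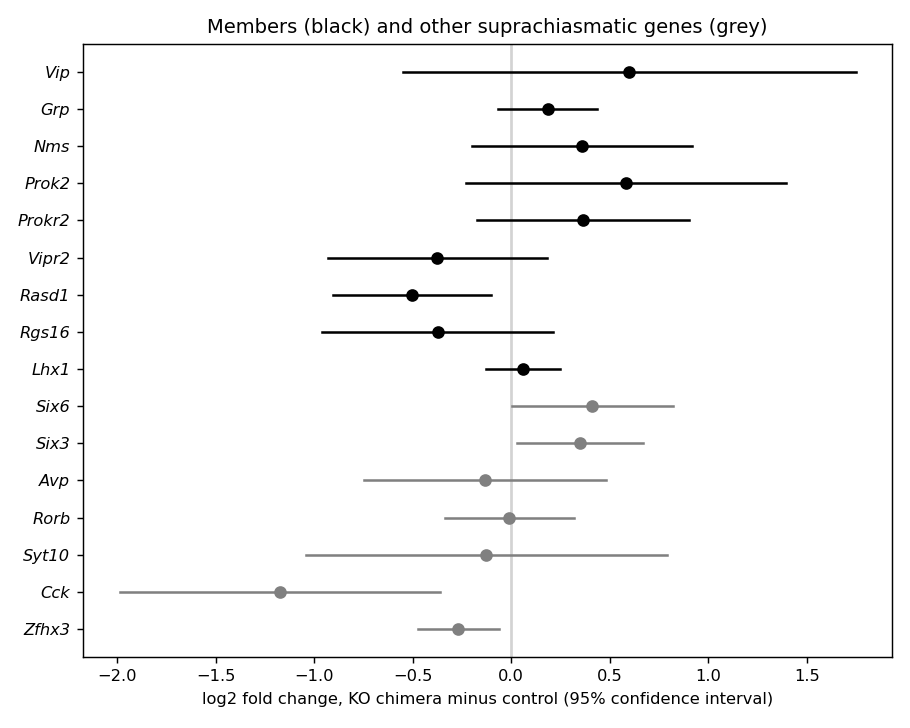
Log2 fold change, KO chimera minus control, with its 95% confidence interval (horizontal axis), of the 9 members (black) and 7 other suprachiasmatic genes (grey). The interval of Vip runs from −0.55 to 1.75, and that of Rasd1 from −0.90 to −0.10 is the only one among the members that leaves out 0 before adjustment over all genes.

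Although the groups were not separated, the members varied together across mice. After the mean of each group was removed, 8 of the 36 pairs were correlated (permutation adjusted p under 0.05 over the 36 pairs; 9 unadjusted), all positively, and they fell into a pair of sets that shared no called pair. In the first, Vip followed Prok2 (r = 0.87, rho = 0.89; permutation adjusted p = 0.00018), Nms (r = 0.84, rho = 0.89; adjusted p = 0.00101) and Prokr2 (r = 0.73, rho = 0.77; adjusted p = 0.0027). Nms followed Prok2 (r = 0.84, rho = 0.80; permutation adjusted p = 0.00045) and Prokr2 (r = 0.78, rho = 0.79; adjusted p = 0.00154). Prok2 and its own receptor Prokr2 did not pass (r = 0.59; permutation adjusted p = 0.104).

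In the second set, Vipr2 followed Rgs16 (r = 0.92, rho = 0.95; permutation adjusted p = 0.00024) and Rasd1 (r = 0.78, rho = 0.89; adjusted p = 0.00138), and Rasd1 followed Rgs16 (r = 0.91, rho = 0.90; adjusted p = 0.00018). Vip and its receptor Vipr2 lay in different sets, with r = 0.51 (permutation adjusted p = 0.207). The 12 pairs that cross the sets had r between 0.03 and 0.51, and 0 passed. Grp and Lhx1 were in no called pair over the 16 mice, with r between −0.28 and 0.13 for Grp and between 0.11 and 0.46 for Lhx1 against the other 7. All 8 called pairs kept their call with each mouse left out in turn (lowest r 0.68, for Vip and Prokr2), and without the 2 mice farthest from the median of the first gene 7 of the 8 did, Vip and Prokr2 falling to 0.64 (permutation adjusted p = 0.0521). In that setting 1 pair that crosses the sets passed, Prokr2 with Rgs16 (r = 0.75; permutation adjusted p = 0.0162), where control replicates 3 and 5 were the mice left out.

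Within scan day 2, r of the 8 pairs lay between 0.79 and 0.99 and 6 of them passed, all but Vip with Prokr2 and Nms with Prokr2 (exact permutation adjusted p = 0.142 and 0.0694, n = 8). On that day Lhx1 passed with Vipr2 (r = 0.92; exact permutation adjusted p = 0.0357) and Rgs16 (r = 0.92; 0.0469). Within day 1 r of the 8 pairs lay between 0.69 and 0.95, where 0 of 36 pairs passed (7 unadjusted; lowest exact permutation adjusted p = 0.0625, n = 8). The 12 crossing pairs had a median r of −0.02 on day 1 and 0.63 on day 2, and 0 passed on either. With slide means removed as well, the 8 pairs had r between 0.53 and 0.89, and Vipr2 with Rasd1 (0.53) no longer passed (permutation adjusted p = 0.155). In that setting Lhx1 with Prok2 passed at r = −0.73 (permutation adjusted p = 0.0121). Its permutations stayed within groups but crossed slides, so p with slide means removed can be too small.

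The number of crossing pairs that passed depended on control replicate 5, the 1 mouse whose omission added any. It ranked 15th, 16th, 16th and 16th of 16 for Vip, Nms, Prok2 and Prokr2 but 1st, 2nd and 1st for Vipr2, Rasd1 and Rgs16. Control replicate 7 ranked 11th, 14th, 15th and 9th in the first set and 2nd, 1st and 2nd in the second. By contrast KO chimera replicates 2 and 4 ranked 12th or lower in all 7 genes, and KO chimera replicate 3 ranked 5th or higher in all 7. Without control replicate 5, 13 of the 36 pairs passed, the 5 added being Vip with Vipr2 (r = 0.74) and Rgs16 (0.69), Prokr2 with Vipr2 (0.61) and Rgs16 (0.67), and Nms with Rgs16 (0.69), and the other 7 crossing pairs did not pass.

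Within the control mice alone the 12 crossing pairs had r between −0.53 and 0.30 (median −0.08), and within the KO chimeras alone between 0.51 and 0.91 (median 0.81; n = 8 in each). In KO chimeras 6 of the 12 passed (lowest exact permutation adjusted p = 0.0254) and in controls 0; whether the groups differ in this was not tested. Without control replicates 5 and 7 the crossing pairs in controls lay between 0.41 and 0.91 (median 0.74, n = 6). Without KO chimera replicates 2 and 4 they lay between 0.02 and 0.73 in KO chimeras (median 0.37, n = 6). The pairs inside the second set stayed high in all these subsets, at 0.72 or above. Those inside the first set fell as low as −0.06 without KO chimera replicates 2 and 4. With all 4 of these mice left out, 3 of 3 pairs of the second set and 1 of 6 of the first passed (12 mice, group means removed). These 4 mice were picked after their values were seen.

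**Figure D3:**
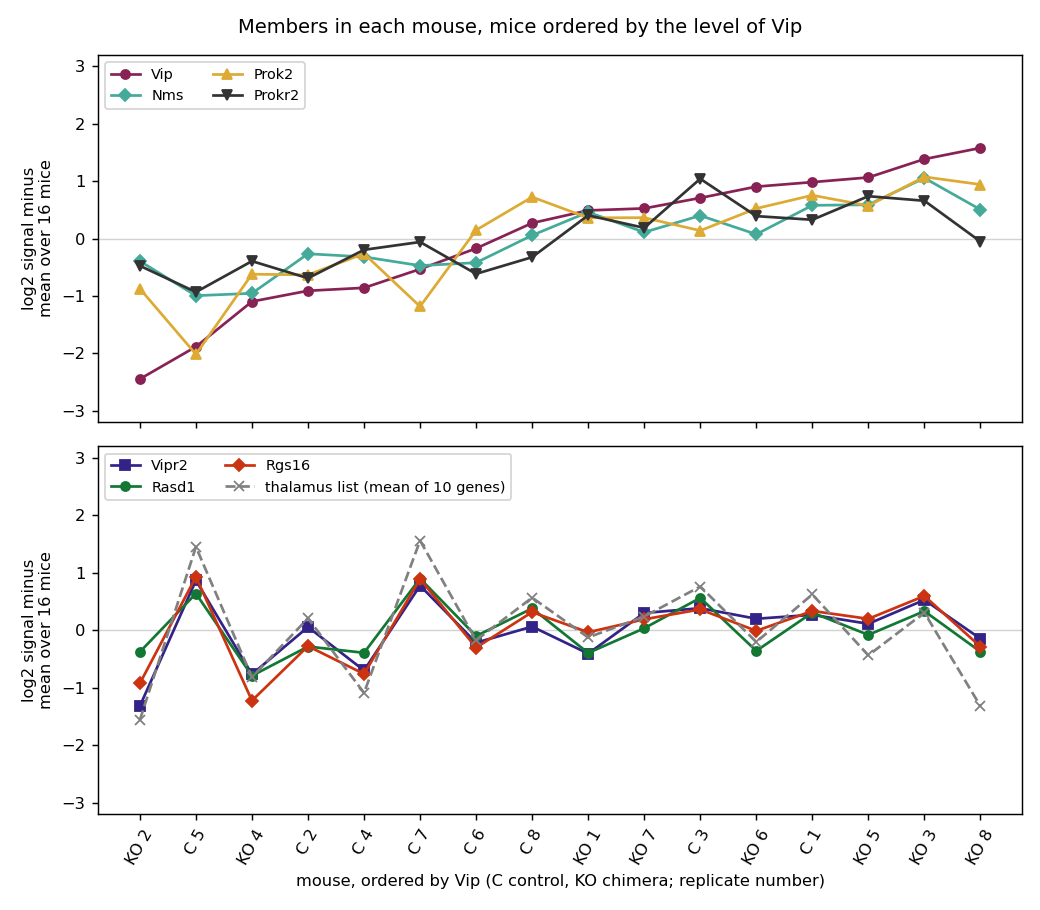
Log2 signal of each mouse minus the mean over 16 mice (vertical axis), with mice ordered along the horizontal axis by their level of Vip (C control, KO chimera, with replicate number); upper panel Vip, Nms, Prok2 and Prokr2, lower panel Vipr2, Rasd1, Rgs16 and the mean of 10 thalamus genes (dashed). The upper genes rise together from left to right, while in the lower panel control replicates 5 and 7 stand high although their Vip is low.

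**Figure D4:**
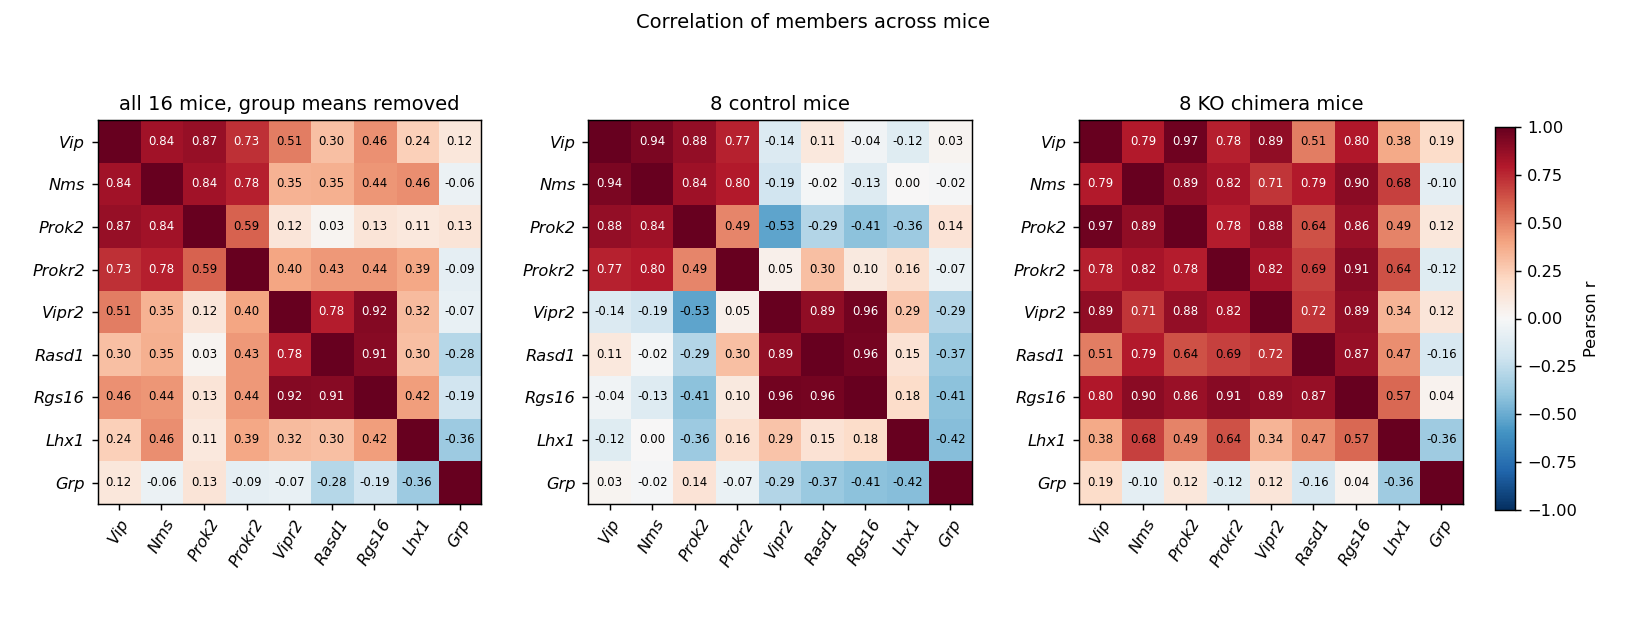
Pearson r between members across all 16 mice with group means removed (left), across 8 control mice (middle) and across 8 KO chimera mice (right); red is positive and blue negative. Blocks of red join Vip, Nms, Prok2 and Prokr2, and Vipr2, Rasd1 and Rgs16; the 12 squares between the blocks run from −0.53 to 0.30 in control mice and from 0.51 to 0.91 in KO chimeras.

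The second set moved with the markers of a neighbouring region. The mean of 10 thalamus genes correlated across the 16 mice with Rgs16 (r = 0.87, rho = 0.88; permutation adjusted p = 0.00135 over 54 relations of 9 members with 6 lists), Vipr2 (r = 0.87, rho = 0.84; adjusted p = 0.00135) and Rasd1 (r = 0.81, rho = 0.79; adjusted p = 0.0054). These 3 relations passed with each mouse left out in turn, and without the 2 mice farthest from the median of the thalamus score they had r = 0.81, 0.79 and 0.80. Within the scan days they lay between 0.80 and 0.94, with 1 of 6 values past the threshold (Rgs16 on day 1; exact permutation adjusted p = 0.0469, n = 8). No relation could pass alone within a day, given the few permutations of 8 mice. For the first set r with the thalamus score was 0.26 for Vip, 0.17 for Nms, −0.08 for Prok2 and 0.31 for Prokr2, and 0 passed.

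Control replicates 7 and 5 had the highest and second highest thalamus score of all mice and KO chimera replicate 2 the lowest. Summed over the 10 genes, the signal was 30.9 to 105 times the array's 75th percentile in control mice and 23.9 to 43.4 times in KO chimeras. Of the 10 genes 9 had a negative log2 difference and 2 fell in limma, against 2.80% of all genes lower: Prkcd, a protein kinase C of thalamic relay neurons, by 1.88 (adjusted p = 0.0425), and Adarb1, an RNA-editing enzyme, by 0.62 (0.0372). The number that fell was 0 with quantile normalization and in the deposited value table, 1 with normexp and 4 with each array scaled to its median, and over 31 alternatives Adarb1 passed in 17 and Prkcd in 11. Single omissions took the call from both without control replicates 1, 5 or 7 or KO chimera replicates 2, 4, 6, 7 or 8, and from Prkcd alone without control replicates 3 or 8 or KO chimera replicates 1 or 5. Adarb1 also lost its call when slides were fitted as fixed terms (adjusted p of limma 0.0549). The part of thalamus content in the lower means of Vipr2, Rasd1 and Rgs16 was not tested.

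The mean of the 18 further suprachiasmatic markers also rose and fell with the second set, with r = 0.76 for Vipr2, 0.74 for Rgs16 and 0.68 for Rasd1 (permutation adjusted p = 0.0167, 0.0175 and 0.032). Without KO chimera replicate 3 none of the 3 passed (permutation adjusted p = 0.0644 for Vipr2, 0.0751 for Rgs16), and Rasd1 was also lost in 6 other single omissions. Without control replicate 5 the same score passed with all 4 genes of the first set too (r = 0.76 for Vip, 0.82 for Nms, 0.67 for Prok2 and 0.69 for Prokr2). With slide means removed, under permutations that crossed slides and can give p too small, it passed with Nms (r = 0.75; permutation adjusted p = 0.0182) and Rgs16 (r = 0.61; 0.045). Vipr2 and Rasd1 lost their calls there (0.137 each). Of the 5 defining genes Rorb was correlated, with Rasd1 (r = 0.89, rho = 0.90), Rgs16 (r = 0.89, rho = 0.86) and Vipr2 (r = 0.87, rho = 0.89), each with a permutation adjusted p of 0.0006 or less over 45 relations; r was 0.83 to 0.85 without the 2 farthest mice. Six6, Six3, Avp and Syt10 passed with 0 members. The largest of these r were negative ones of Grp: −0.61 with Avp, −0.52 with Six3 and −0.40 with Six6 (permutation adjusted p = 0.18, 0.421 and 0.913). Without the 2 farthest mice they were −0.64, −0.77 and −0.83, while Grp with Syt10 had 0.11 over all 16 mice. In the same list, and as a description, r with Rgs16 was 0.91 for Cck, 0.90 for Rora and 0.81 for Zfhx3, while 7 of the 18 markers had a negative r with Rgs16, from −0.49 for Penk and −0.44 for Sst, the enkephalin and somatostatin genes, to −0.0044 for Gad1. Drd1, the dopamine D1 receptor, had r = 0.91 with Nms and 0.38 with Rgs16. Rora, Rorb and Cck are expressed in thalamus as well as in the nucleus.

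Grp had 1 relation past the threshold, a negative one with 4 magnocellular genes (r = −0.67, rho = −0.59; permutation adjusted p = 0.0468). It passed in 3 of the 16 single omissions, and r was −0.43 without the 2 farthest mice and −0.15 within scan day 1. Avp belongs to these magnocellular genes and also to the further suprachiasmatic markers. With Avp alone, Grp had r = −0.61 (permutation adjusted p = 0.18). Scores of oligodendrocyte, cortex and arcuate genes passed with 0 members when group means alone were removed (lowest permutation adjusted p = 0.0996, for Nms with oligodendrocyte genes at r = −0.59). With slide means removed as well, 10 of the 54 relations passed. The permutations there crossed slides, so p in that setting can be too small. Of the 10 relations, 5 joined the first set to the oligodendrocyte or cortex score. Vip, Nms and Prokr2 ran against the oligodendrocyte score (r = −0.60, −0.75 and −0.71; permutation adjusted p = 0.0182, 0.00756 and 0.045), and Vip and Prok2 ran with the cortex score (r = 0.72 and 0.73; permutation adjusted p = 0.0292 and 0.0182). Nms with the oligodendrocyte score also passed under normexp (permutation adjusted p = 0.0284). Within scan day 2, Prokr2 with the oligodendrocyte score and Prok2 with the cortex score passed (exact permutation adjusted p = 0.0469 each, n = 8). The part of these regions in the levels of the first set was not tested. Of the 10 oligodendrocyte genes, 4 fell between the groups (median −0.37), against 2.80% of all genes. The cortex and arcuate lists had 0 called.

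Clock phase and array quality were set beside the members in the same way. Over 36 relations with Dbp, Nr1d1, Per2 and Arntl 0 passed (5 unadjusted; lowest permutation adjusted p = 0.204). The largest was Prok2 with Per2 at r = 0.65 (rho = 0.54, r = 0.69 without the 2 farthest mice), and Per2 also had 0.62 with Nms and 0.59 with Vip. Over 18 relations with the number of spots above background and the 75th percentile of the array 0 passed and 0 had an unadjusted permutation p under 0.05 by Pearson's r (r from −0.29 to 0.44). By rank, Vip with the number of spots above background had rho = 0.56 (permutation p = 0.0295, adjusted p = 0.475) and Prok2 had rho = 0.49 (permutation p = 0.0528, adjusted p = 0.475).

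Across the 16834 genes with a symbol that could be ranked, Vip, Nms and Prok2 stood near the top of each other's lists. Ranked with the other members included, Prok2 was 1st and Nms 3rd for Vip, and Vip was 2nd for Prok2. Prokr2 was further down, 35th for Vip and 195th for Prok2, and Prok2 was 112th for Prokr2. In the second set Rgs16 was 5th for Vipr2 and 5th for Rasd1, while Vipr2 was 4th and Rasd1 7th for Rgs16. Rasd1 was only 106th for Vipr2, and Vipr2 107th for Rasd1. Leaving the members out, the 5 genes most like Vip, by r with group means removed over 16 mice, were Fcmr (0.86), Serpinb1b (0.84), Ppp1r11 (0.83), Prps1l3 (0.81) and C230057M02Rik (0.80). Prok2 was closest to Serpinb1b (0.94), a serine protease inhibitor, and among the next were the forebrain homeobox gene Dlx6 (0.87), the prolactin receptor gene Prlr (0.84) and Prps1l3 (0.84). Nms was closest to Drd1 (0.91), then Aldh3b3 (0.86), Defa3 (0.85), Ptk7 (0.81) and Cnksr2 (0.81). Serpinb1b and Prps1l3 were thus shared by Vip and Prok2. These lists are the highest of many values and carry no p.

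Relatives of the members by family or function were described from lists chosen by name. Of 12 related ligands and receptors 8 were measured and 0 passed in limma (1 unadjusted), with a median of 0.09 that turned to −0.04 with each array scaled to its median. 1 of the 8 was called lower in that scaling, with quantile normalization and in the deposited values. Vipr1, the other receptor of Vip, measured −0.52 ± 0.14 (SE; limma adjusted p = 0.0531), and Nmb and Grpr, the neuromedin B and Grp receptor genes, measured 0.17 and 0.21 (0.426 and 0.427). Prok1, the sister ligand of Prok2, was well above background on 0 arrays and its receptor Prokr1 on 2. Of 15 G protein regulators and relatives of Rasd1, 1 fell: Rgs8, a regulator of Gi and Go signalling, by 0.51 ± 0.08 (SE; limma adjusted p = 0.00568), from 2.99 ± 0.19 to 2.48 ± 0.09 (SD, n = 8 each). It kept its call in 29 of 31 alternatives, the exceptions being each scan day alone. Gnai1, the inhibitory G protein subunit, and Rgs9 measured −0.21 and 0.33 (limma adjusted p = 0.0871 and 0.0907). The list's median was −0.06. Of all genes, 2.80% were called lower and 20.7% had an unadjusted p of limma under 0.05.

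Of 14 LIM homeobox relatives of Lhx1, 0 passed in limma (3 unadjusted, median 0.00059, −0.13 with each array scaled to its median); the LIM-binding cofactor Ldb1, Lmo1 and Lhx3 had the smallest p, at 0.21, −0.18 and 0.52 (limma adjusted p = 0.0769, 0.0806 and 0.111). Of 12 genes induced by light or cyclic AMP in the nucleus, 0 passed in limma (4 unadjusted, median −0.03), with Per1 at −0.25, the phosphatase gene Dusp1 at −0.46 and Crem at 0.17 (limma adjusted p = 0.0757, 0.136 and 0.144). Among 19 core clock genes 3 fell (median −0.09): Ciart, a repressor of the CLOCK complex, by 0.51 (limma adjusted p = 0.00901), the repressor Cry2 by 0.38 (0.0145) and the nuclear receptor Nr1d2 by 0.30 (0.0467), the last in 10 of 31 alternatives. Rasd1 is among the genes that glucocorticoids induce, and of 14 others of that kind 7 fell and all 14 had a negative log2 difference (median −0.29), also with median, quantile and normexp scaling. Zbtb16, a zinc finger factor, fell by 0.68, the kinase Sgk1 by 1.28 and Tsc22d3, a leucine zipper protein, by 0.49 (limma adjusted p = 0.000704, 0.00479 and 0.00568). Beside these list counts, 2.80% of all genes were called lower and 20.7% had an unadjusted p of limma under 0.05. With each array scaled to its median, 4 G protein regulators, 2 LIM relatives, 3 genes induced by light or cyclic AMP, 7 core clock genes and 12 glucocorticoid-induced genes were called lower, whereas with normexp 1 core clock gene was. The glucocorticoid list was chosen with its lower values in these mice known, so its direction is no independent evidence.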

How the data were processed

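Hypothalamus RNA of 16 mice (8 control, 8 KO chimera) was measured on 1-colour arrays. The authors deposited the scanner's processed intensity per spot, background-subtracted and on a linear scale per the file headers; the submitters' processing notes name Agilent Feature Extraction, version 10.7. A deposited table of log2 values, of which no label states the normalization, served as an alternative. It followed the scanner's log2 values with a correlation across spots of at least 0.9996, with column medians of 5.21 to 5.26 and genes not centred; the step that aligned its arrays stays unknown.

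Control spots and outlier spots were left out. Log2 intensity minus the array's 75th percentile was averaged per probe, and a probe was kept if 8 or more of the 16 arrays marked it above background (35140 of 55681). Probes were named through RefSeq accession (28026), current symbol (3418) or older symbol (295), otherwise as in the files; positions are mm9, per the file headers, and whether a probe lies in a UTR was not analysed here. Groups, taken from the labels, were compared in R 4.3.3 by limma 3.58.1 (a linear model per gene with moderated variances) over 24360 genes, threshold 0.05 after Benjamini-Hochberg adjustment. A KO chimera whose title has a zero in place of the letter was grouped by its source name. Nothing in the labels pairs mice by number.

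Correlations across mice used values with group means removed, 100000 two-sided permutations within groups (all of them within 1 scan day) and adjustment over each family. Where slide means were removed as well, values were still permuted within groups across slides. The p-values of that setting can therefore be too small. Within 1 scan day the lowest p that the permutations can give is 0.00174, so after adjustment no relation can pass alone. A list score is the mean of centred log2 values, without the members. Named genes were all members, 5 further suprachiasmatic genes, up to 3 of each related list with the smallest p, the 5 genes most like Vip, Nms and Prok2 (1 of those for Prok2 is not reported here), and a few chosen after their values were seen (Cck, Rora, Zfhx3 and Drd1 in the correlations, Prok1, Prokr1, Prkcd and Adarb1). The relations with single suprachiasmatic genes, clock genes and array properties, and the correlations with mice left out, were chosen after the data were seen. The members and lists were chosen with earlier results of these data known. In simulated data of this comparison (24360 genes), limma called 59.7% of the 67 genes given a log2 change of 0.5, 89.6% of the 67 given 1, and 100% of the 66 given 2. Among 24160 genes left as they were it called 11. The changed genes were drawn at random from all genes tested, whose median pooled SD was 0.20. These rates therefore do not hold for members as variable as Vip (pooled SD 1.18) or Prok2 (0.83). Figures used Python 3.11.15 and matplotlib 3.10.9.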

Additional observations from a re-analysis of the deposited data

How the results depend on the processing

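The number of members past the threshold was 0 under the main setting, 1 with each array scaled to its median and 1 with the replicate number as a replicate block, in both cases Rasd1 (−0.63, limma adjusted p = 0.0372, and −0.50, 0.0368). It was 0 in the other alternatives, including each mouse left out in turn, and at an adjusted p under 0.1. The labels do not pair mice by replicate number. Of 8 same-numbered pairs 3 correlated above 0.1 (range −0.07 to 0.24), and 3 of 8 controls correlated best with their own number. These correlations cannot decide whether the numbers pair the mice, since paired mice need not resemble each other in expression. With the block 821 of all genes passed. Each member had 31 alternative values, and 8 of 9 kept their direction in all 31; Lhx1 turned to −0.067 with median scaling and to −0.00026 in the deposited value table. Of all genes, 933 passed; the number was 4168 with median scaling (4.27% of them higher, against 26.8%), 522 with quantile normalization, 273 with normexp background correction (9.89% higher), 536 in the deposited value table, 598 with no filter on dim probes (40.5% higher), 488 with slides fitted as fixed terms and 2039 at an adjusted p under 0.1. Within scan day 1 limma called 0 (2837 unadjusted) and within day 2 it called 7. With 1 mouse left out it was 364 (without control replicate 5) to 1030. Without control replicates 1 and 7 it was 542 and 390, and without KO chimera replicates 2, 4, 6 and 7 it was 443, 617, 403 and 617. Of the 36 pairs of members 8 passed, and 8 to 13 with 1 mouse left out. Within scan day 1 it was 0, where no pair could pass alone. The 8 pairs kept a positive r in 56 of 56 values under other settings (0.53 to 0.99). Of the 54 relations with region lists 7 passed. With slide means removed 10 did, under permutations that crossed slides and so can give p too small. The number was 4 within scan day 1, 2 within day 2, and 3 (without KO chimera replicate 3) to 12 (without control replicate 5) with 1 mouse left out. The cause of these changes was not tested.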
